A study of Mus musculus with 4 samples.

Results

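Chemokine receptors are the cell surface receptors that let leukocytes follow gradients of chemokines, and 9 of them that steer migrating myeloid cells were followed here: Ccr1, Ccr2, Ccr6, Ccr7, Ccr9, Cx3cr1, Cxcr2, Cxcr4 and Xcr1. They were taken by gene symbol, with earlier results of these data known, from the 22180 genes that the array names by a single-symbol probe set. Each of the 9 had exactly 1 such probe set. The cells came from mouse bone marrow, pooled from 3 animals, out of which monocytes with high surface Ly6C were sorted. They were grown in GM-CSF and interleukin 4 (20 ng per ml each), cytokines that drive monocytes toward dendritic cells. All-trans retinoic acid (100 nM), or DMSO as the control, was added at the start of culture. RNA was taken after 24 h and hybridised to 4 whole-transcript arrays, 2 for retinoic acid and 2 for DMSO. The labels name no genetic modification, and give neither the strain nor the age of the mice. Whether the 2 arrays of a treatment stand for separate cultures or pools of mice is not said, so the spread that the p-values rest on may be technical.

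The receptors couple mainly to G proteins of the inhibitory class, and a chemokine that binds them sets off polarisation and crawling. In monocytes, Ccr2 drives exit from the bone marrow toward inflamed tissue, Cxcr4 retains cells in the marrow, and Cx3cr1 marks patrolling cells. Ccr7 takes maturing dendritic cells to lymph nodes. Retinoic acid is best known in lymphocytes for inducing Ccr9, the gut-homing receptor.

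Median intensities over the 39720 tested probe sets ran from 80.0 to 81.8 across the 4 arrays, and log2 intensities correlated at 0.9841 to 0.9879 between arrays of different treatments and at 0.9931 to 0.9943 between arrays of the same one (Pearson's r across probe sets, which do not count as replicates). A log2 intensity of 6.35 served as the dim level: it is the 95th percentile of the 1405 probe sets for odorant and vomeronasal receptors. All 6 monocyte markers, among them Ly6c2, Csf1r and Lyz2, lay above it in both groups, with a summed linear intensity of 23090 to 24260 with retinoic acid and 19330 to 20570 with DMSO. The 4 NK cell markers lay under it in both groups, as did Siglech and Klk1 of plasmacytoid dendritic cells and Ms4a1 and Pax5 of B cells. Of the same plasmacytoid list, Tcf4 (8.48 with retinoic acid and 8.92 with DMSO) and Cox6a2 (6.70 and 6.51) lay above it in both groups. Of the B cell list, Cd79b (7.70 and 7.04) lay above it in both groups and Cd79a (6.36 and 6.18) with retinoic acid only. Of 9 neutrophil markers, 8 lay above the dim level in at least 1 group. Among these, Elane and Mpo are also expressed by granulocyte and monocyte progenitors. Ngp (11.29 with retinoic acid and 11.42 with DMSO) and Ltf (10.50 and 10.57) were among them too. Ly6g lay close to the dim level at 6.42 with retinoic acid and 6.33 with DMSO.

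Of the 9 receptor genes, Ccr1 rose with retinoic acid, Cxcr2 and Ccr7 fell and 6 did not pass. The test was limma on log2 intensity with Benjamini-Hochberg adjustment over all tested probe sets and a threshold of 0.05. It called 3.07% of all named genes, 1.28% as higher and 1.79% as lower, and 2.09% of all tested probe sets, 0.904% as higher and 1.19% as lower. The receptors were chosen with earlier results of these data known, so their count is a description. With 1625 probe sets that held the same value on all 4 arrays kept in the fit, limma called none of the 9 (5 had an unadjusted p under 0.05), with adjusted p of 0.0960 for Ccr1, 0.0918 for Cxcr2 and 0.0644 for Ccr7. The median log2 difference over the 9 was -0.02, against 0.0087 over all named genes. At an unadjusted limma p under 0.05, 1 of the 9 was higher and 4 were lower. Of all tested probe sets, 6.06% were higher and 7.37% lower at that threshold (5335 of 39720 in all). That base is low for expressed genes, since 19292 of the 39720 were dim in both groups. With only the 19783 probe sets above the dim level tested, 1935 were higher and 2120 lower. Of the 6 receptors in that fit, 1 was higher and 4 lower. On 2 of the 9 genes the retinoic acid arrays all lay above the DMSO arrays and on 4 all below. Of all named genes, 48% showed no overlap, 25% higher and 23% lower. The same share of all tested probe sets was 44%, with 20.7% higher and 23.3% lower. The smallest p that an exact permutation test allows with 2 arrays in each group is 0.333, so the p-values given rest on limma's model. In these bulk samples, fewer cells of a type and less RNA per cell cannot be told apart.

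**Figure D1:**
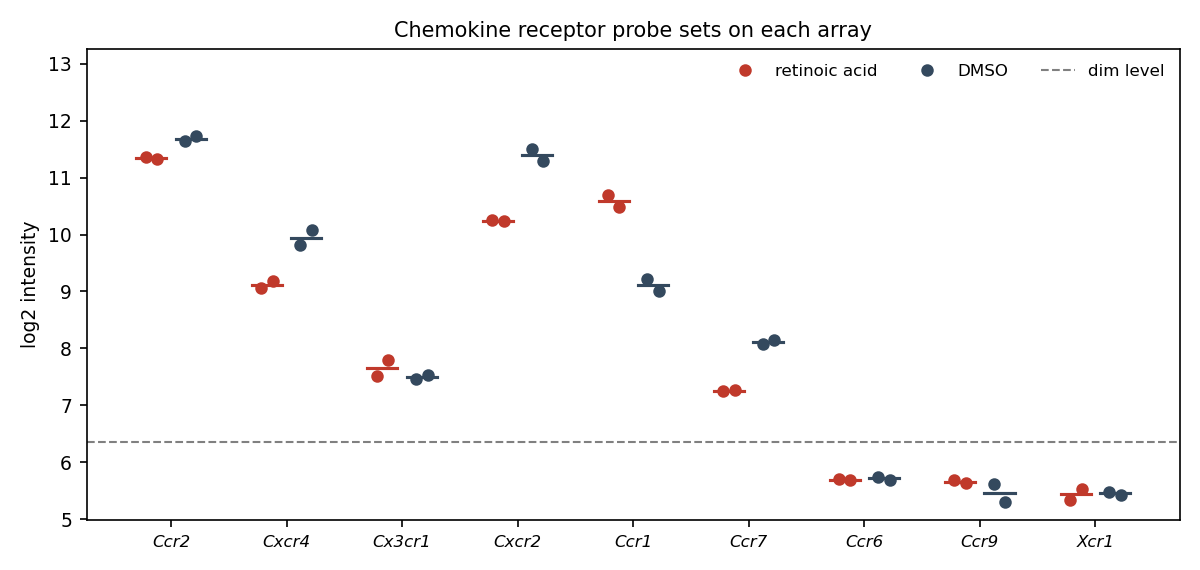
Log2 intensity (y axis) of the 9 receptor probe sets (x axis) on each array, with retinoic acid in red to the left of DMSO in dark blue; points are arrays, short lines are group means (n = 2) and the dashed line is the dim level of 6.35. Ccr1 stands higher with retinoic acid, Cxcr2, Cxcr4, Ccr7 and Ccr2 stand lower, and Ccr6, Ccr9 and Xcr1 lie under the dim level in both groups; levels of different genes come from different probes and cannot be ranked.

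Ccr1, the receptor for the inflammatory chemokines Ccl3, Ccl5, Ccl6 and Ccl9, was the only 1 of the 9 that rose. Its probe set 17532569 read 10.70 and 10.49 (log2 intensity) with retinoic acid, against 9.22 and 9.02 with DMSO. The groups were far apart: the gap between the lowest retinoic acid array and the highest DMSO array exceeded the spread within either group. Ccr1 averaged 10.59 ± 0.15 with retinoic acid and 9.12 ± 0.15 with DMSO (SD, n = 2 each), which was 2.78-fold higher (log2 difference 1.47 ± 0.12, SE, limma adjusted p = 0.0140). The 95% interval of the log2 difference ran from 1.16 to 1.79. A fit without 1 array leaves 1 array in that group and takes the spread from the other group alone, and such fits called 25 to 55 of all probe sets, so a lost call says little about a gene. In these fits Ccr1 did not pass: limma's adjusted p was 0.0964 without retinoic acid replicate 1, 0.0775 without retinoic acid replicate 2, 0.0880 without DMSO replicate 1 and 0.110 without DMSO replicate 2. The log2 difference stayed between 1.37 and 1.58. Ccr1l1, a close relative and neighbour of Ccr1, lay under the dim level in both groups at 4.41 with retinoic acid and 4.40 with DMSO.

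Cxcr2, the receptor for the CXC chemokines that attract neutrophils, had the largest fall among the 9. Its probe set 17214142 read 10.25 and 10.24 with retinoic acid, against 11.50 and 11.29 with DMSO. Both retinoic acid arrays lay about a log2 unit under both DMSO arrays. The means were 10.25 ± 0.0048 with retinoic acid and 11.40 ± 0.15 with DMSO (log2 intensity, SD, n = 2 each), which was 2.22-fold lower (log2 difference -1.15 ± 0.10, SE, limma adjusted p = 0.0167). Without 1 array the limma adjusted p of Cxcr2 was 0.115 (without retinoic acid replicate 1), 0.123 (without retinoic acid replicate 2), 0.110 (without DMSO replicate 1) and 0.0813 (without DMSO replicate 2), with the log2 difference between -1.26 and -1.04. Neutrophils express Cxcr2 strongly, and the summed linear intensity of the 9 neutrophil markers was 12680 to 13190 on the retinoic acid arrays and 12550 to 12620 on the DMSO arrays. Of these markers Retnlg rose (log2 difference 1.06, limma adjusted p = 0.0227) at a level under the dim level in both groups, and the others did not pass. Of the 9 markers 5 were higher and 4 lower, with a median log2 difference of 0.089. Among those that did not pass, Mpo and Ngp had log2 differences of -0.14 and -0.13, and Elane and Mmp8 of 0.21 and 0.49. The part of neutrophil markers in the Cxcr2 result was not tested. Cxcr1, a related receptor for some of the same chemokines, differed by 0.14 ± 0.12 (log2, SE) and did not pass (limma adjusted p = 0.701).

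Promoter sequences of the genes with the largest rise and the largest fall are shown because the treatment acts through DNA-binding receptors. They were taken from RefSeq (GRCm38.p6), 250 bases before to 50 bases after the gene start, and 8 of the 9 genes had a promoter in that table. Capitals mark matches on either strand (a match on the opposite strand shows as its reverse complement). The motifs marked are AGGTCA, a core element bound by retinoic acid receptors, and GAGGAA, the core of sites for the myeloid factor PU.1. Exact letters were searched, so variants of AGGTCA that these receptors may also bind are not marked in either window. The Ccr1 window is chr9:123968643-123968942 on the minus strand and the Cxcr2 window chr1:74153744-74154043 on the plus strand.
Ccr1: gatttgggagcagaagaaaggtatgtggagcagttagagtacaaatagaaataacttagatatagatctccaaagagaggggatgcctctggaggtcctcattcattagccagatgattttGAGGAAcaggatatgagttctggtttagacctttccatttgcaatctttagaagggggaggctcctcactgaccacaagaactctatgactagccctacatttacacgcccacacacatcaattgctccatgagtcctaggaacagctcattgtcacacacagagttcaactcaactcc
Cxcr2: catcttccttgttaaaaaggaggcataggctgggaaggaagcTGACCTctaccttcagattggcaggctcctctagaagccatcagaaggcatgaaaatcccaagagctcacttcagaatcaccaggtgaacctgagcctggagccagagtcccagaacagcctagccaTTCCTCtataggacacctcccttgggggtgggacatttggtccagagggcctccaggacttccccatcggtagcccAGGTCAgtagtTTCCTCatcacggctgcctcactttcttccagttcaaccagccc
The Cxcr2 window held AGGTCA once on each strand, starting at positions -208 and -5 from the gene start, and GAGGAA 2 times on the opposite strand, starting at -81 and 6. The Ccr1 window held GAGGAA 1 time, at position -129, and no AGGTCA. Among all 32851 promoters of the table, 16.3% held AGGTCA and 28.3% held GAGGAA, and of the 8 genes Ccr6 and Cxcr2 held AGGTCA, and Ccr1, Ccr6 and Cxcr2 held GAGGAA. Neither window held a direct repeat of AGGTCA with 5 or 2 bases between the copies, each found in 0.00913% of promoters, or TTGCNNAA, the core of C/EBP sites, found in 10.8%. No match overlapped another. A match describes these letters only.

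Ccr7, the receptor for Ccl19 and Ccl21 that maturing dendritic cells use to reach lymph nodes, also fell. Its probe set 17268972 read 7.25 and 7.27 with retinoic acid, against 8.08 and 8.15 with DMSO. Arrays of 1 treatment differed little for this gene and the treatments did not overlap. Ccr7 was 1.81-fold lower, at 7.26 ± 0.01 with retinoic acid and 8.12 ± 0.05 with DMSO (log2 intensity, SD, n = 2 each; log2 difference -0.86 ± 0.08, SE, limma adjusted p = 0.0175). It did not pass without retinoic acid replicate 1 (limma adjusted p = 0.116), retinoic acid replicate 2 (0.121), DMSO replicate 1 (0.132, the log2 difference then being -0.89) or DMSO replicate 2 (0.160). Of the 4 listed markers of migratory dendritic cells, 2 could be measured by name. Fscn1, an actin-bundling protein of mature dendritic cells, fell 1.49-fold (log2 difference -0.57 ± 0.08, SE, limma adjusted p = 0.0448). Ccl22, a chemokine that these cells make, read 10.49 and 9.87 with retinoic acid, against 11.76 and 11.47 with DMSO, and did not pass (limma adjusted p = 0.0747). The summed linear intensity of both markers was 1099 to 1608 with retinoic acid and 3093 to 3713 with DMSO. Ccl22, which did not pass, weighs most in this sum, since Fscn1 averaged only 7.37 with retinoic acid and 7.95 with DMSO (log2). The part of this shift in the Ccr7 result was not tested.

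Among the receptors that hold monocytes in the marrow or release them, none passed. Cxcr4, the marrow-retention receptor for Cxcl12, read 9.06 and 9.19 with retinoic acid, against 9.81 and 10.08 with DMSO. Its arrays did not overlap, and it was 1.77-fold lower (log2 difference -0.82 ± 0.12, SE), just outside the threshold (limma adjusted p = 0.0579). Cxcr4 passed as lower when only probe sets with 1 gene symbol were tested (limma adjusted p = 0.00695), when only those above the dim level were tested (0.0294) and with an intensity trend in the prior variance (0.0333). It did not pass with the constant probe sets kept (limma adjusted p = 0.172), with quantile normalization (0.0624), with the replicate number as a block (0.106), with the numbers crossed in a replicate block added after the data were seen (0.104) or without 1 array (0.141 to 0.241).

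Ccr2, the receptor for Ccl2, Ccl7 and Ccl12 that carries monocytes out of the marrow, read 11.36 and 11.34 with retinoic acid, against 11.64 and 11.73 with DMSO. The groups did not overlap but lay close together, and the log2 difference of -0.34 ± 0.08 (SE) did not pass (limma adjusted p = 0.164). Its 95% interval, -0.55 to -0.13, leaves out a change of 2-fold in either direction. Cx3cr1, the fractalkine receptor of patrolling monocytes, read 7.51 and 7.80 with retinoic acid, against 7.46 and 7.53 with DMSO. The groups overlapped, and the log2 difference was 0.16 ± 0.12 (SE, limma adjusted p = 0.660; 95% interval -0.16 to 0.48). Single arrays set that value: the log2 difference was 0.30 without retinoic acid replicate 1, 0.016 without retinoic acid replicate 2, 0.13 without DMSO replicate 1 and 0.19 without DMSO replicate 2.

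Ccr6, Ccr9 and Xcr1 lay under the dim level on every array. None rose above it with retinoic acid, and a fall, or a change below that level, could not be read. Ccr9, the Ccl25 receptor of gut homing, read 5.69 and 5.63 with retinoic acid, against 5.62 and 5.30 with DMSO (log2 difference 0.20 ± 0.13, SE, limma adjusted p = 0.598). The retinoic acid arrays lay above the DMSO arrays by less than the gap between the DMSO arrays themselves. Ccr6, the Ccl20 receptor found on some dendritic cells and lymphocytes, read 5.71 and 5.69 with retinoic acid, against 5.75 and 5.69 with DMSO. Xcr1, which marks conventional type 1 dendritic cells, read 5.34 and 5.53 with retinoic acid, against 5.49 and 5.43 with DMSO. Both genes overlapped between the groups, with log2 differences of -0.02 ± 0.08 for Ccr6 and -0.02 ± 0.10 for Xcr1 (SE). Plasmacytoid dendritic cells, which can carry Ccr9, had 4 markers, of which none passed. Their summed linear intensity was 525 to 567 with retinoic acid and 641.6 to 668 with DMSO. The brightest, Tcf4, weighs most in this sum and had a log2 difference of -0.44. Siglech differed by -0.02, and Klk1 and Cox6a2 were higher by 0.33 and 0.19 (log2). Of type 1 dendritic cell markers, Tlr3 lay under the dim level in both groups and Itgae did not pass (log2 difference -0.72, limma adjusted p = 0.0895), with a sum of 160.6 to 166 with retinoic acid and 220.6 to 267.9 with DMSO. Among 4 B cell markers, Cd79b rose (log2 difference 0.65, limma adjusted p = 0.0471). Their sum, in which Cd79b as the brightest weighs most, was 373.9 to 381.6 with retinoic acid and 291.8 to 294 with DMSO. None of 3 T cell, 4 NK cell, 2 erythroid, 5 basophil and eosinophil and 3 megakaryocyte markers passed. The part of the marker sums in the receptor values was not tested.

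**Figure D2:**
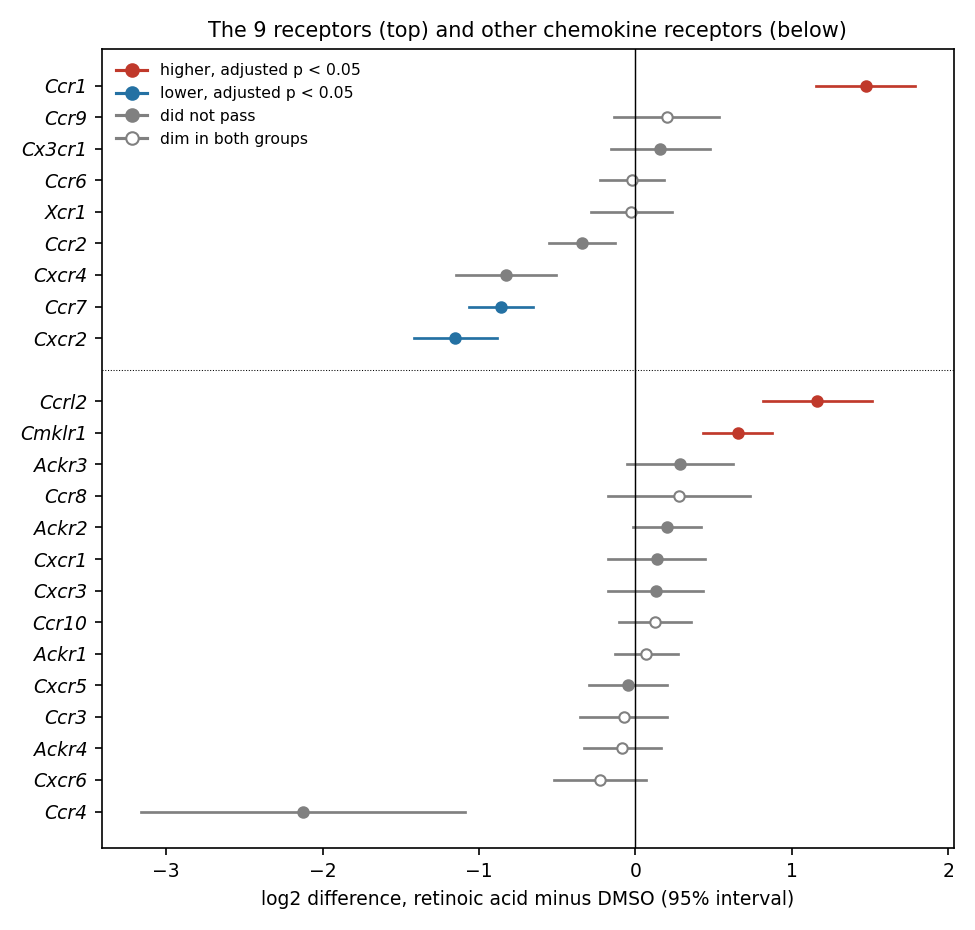
Log2 difference, retinoic acid minus DMSO (x axis), with limma's 95% interval for the 9 receptors (above the dotted line) and 14 other chemokine receptors (below it). Red and blue mark genes past an adjusted p of 0.05, grey those that did not pass, and open points genes under the dim level in both groups; Ccr1 at 1.47 stands to the right of all others, and Ccr4 has the widest interval.

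Of 14 other measured chemokine receptors and related decoy receptors, Ccrl2 and Cmklr1 rose, 12 did not pass and none fell. Among all named genes, 1.28% were called higher and 1.79% lower. The median log2 difference of the 14 was 0.13. At an unadjusted limma p under 0.05, 2 were higher and 1 lower, beside 6.06% and 7.37% of all tested probe sets. With only probe sets above the dim level tested, 2 of 8 were higher and 1 lower, beside 1935 and 2120 of 19783. Ccrl2 and Cmklr1 both bind the attractant chemerin, and only Cmklr1 is known to signal. Ccrl2 read 7.55 and 7.28 with retinoic acid, against 6.15 and 6.36 with DMSO, 2.24-fold higher (limma adjusted p = 0.0305), with its DMSO mean of 6.25 under the dim level. Cmklr1 read 9.05 and 8.96 with retinoic acid, against 8.31 and 8.39 with DMSO, 1.57-fold higher (limma adjusted p = 0.0401). Both were higher on every retinoic acid array than on any DMSO array, as were 25% of all named genes. Ackr2, a scavenger of inflammatory CC chemokines, and Cxcr3, the receptor for interferon-induced chemokines, did not pass, with log2 differences of 0.20 ± 0.08 and 0.13 ± 0.12 (SE). Ccr4, the receptor for Ccl17 and Ccl22, is singled out after its values were seen: it read 5.47 and 5.57 with retinoic acid, against 8.25 and 7.05 with DMSO. Its DMSO arrays differed widely, its retinoic acid arrays lay under the dim level, and the log2 difference of -2.13 ± 0.40 (SE) did not pass (limma adjusted p = 0.1, and 0.0734 without DMSO replicate 1). Without DMSO replicate 2 the limma adjusted p of Ccr4 was 0.0383, but there the wide gap between its DMSO arrays is removed and the spread comes from the dim retinoic acid arrays alone.

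Receptors for other attractants moved in both directions. Of 6 measured, C3ar1, C5ar1 and Ptafr rose, Ltb4r1 fell and Fpr2 and Gpr183 did not pass, beside 1.28% of all named genes called higher and 1.79% lower. At an unadjusted limma p under 0.05, 3 were higher and 1 lower, beside 6.06% and 7.37% of all tested probe sets. With only probe sets above the dim level tested, 3 of 6 were higher and 1 lower, beside 1935 and 2120 of 19783. C3ar1, the receptor for the complement fragment C3a, read 11.85 on both retinoic acid arrays, against 10.13 and 10.04 with DMSO, 3.41-fold higher (limma adjusted p = 0.00465). C5ar1, the receptor for C5a, read 7.42 on both retinoic acid arrays, against 6.40 and 6.46 with DMSO, 1.99-fold higher (limma adjusted p = 0.0129). Both complement receptors were thus higher on each retinoic acid array, as were 25% of all named genes. Ptafr, the receptor for platelet-activating factor, was 1.98-fold higher (limma adjusted p = 0.0188). Ltb4r1, the receptor for the lipid attractant leukotriene B4, read 6.97 and 7.29 with retinoic acid, against 8.44 and 8.57 with DMSO, 2.59-fold lower (limma adjusted p = 0.0204). Gpr183, which senses oxysterols, differed by 0.05 ± 0.10 and Fpr2, a formyl peptide receptor whose retinoic acid mean lay under the dim level, by -0.77 ± 0.37 (log2, SE). The Fpr2 difference was -1.25 without retinoic acid replicate 1, -0.28 without retinoic acid replicate 2, -0.49 without DMSO replicate 1 and -1.04 without DMSO replicate 2.

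**Figure D3:**
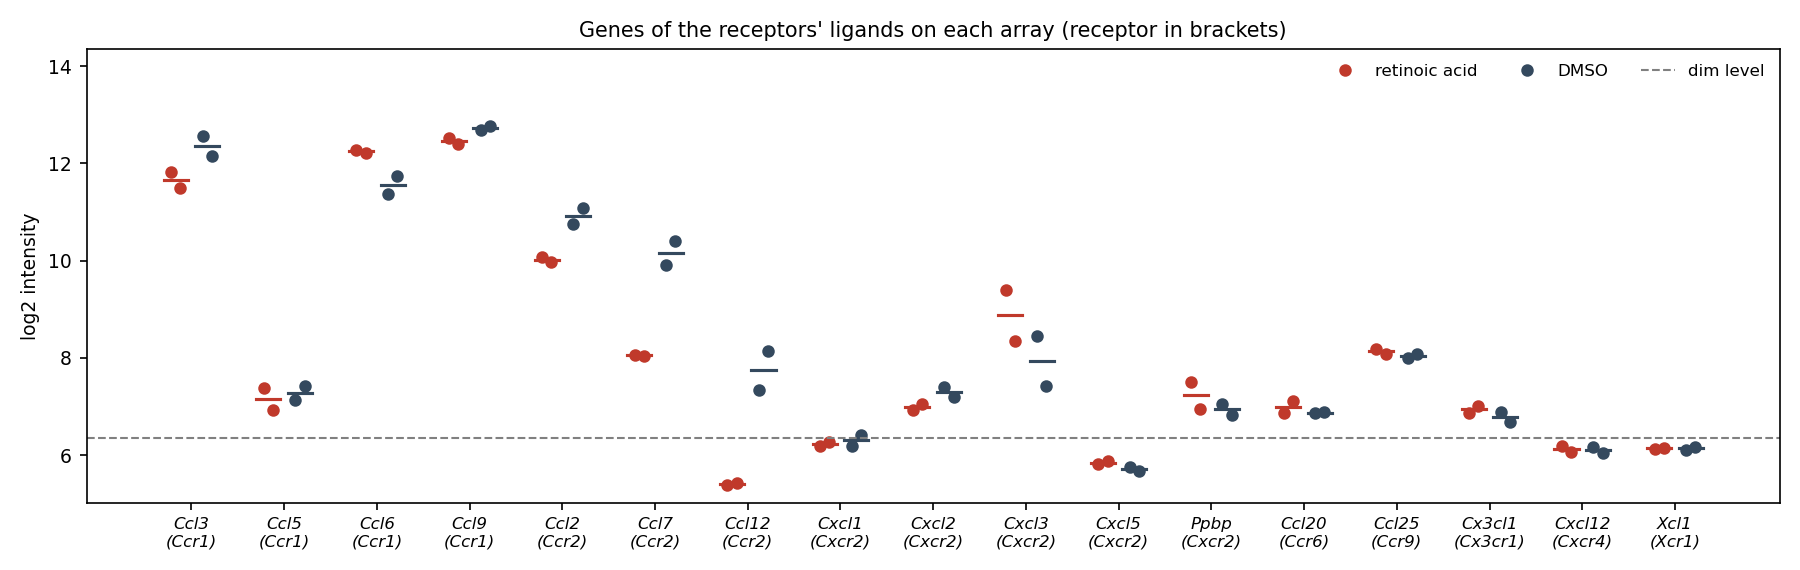
Log2 intensity (y axis) of 17 genes that encode ligands of the 9 receptors (x axis, receptor in brackets), with retinoic acid in red to the left of DMSO in dark blue; points are arrays, short lines are group means (n = 2) and the dashed line is the dim level of 6.35. The Ccr2 ligand genes Ccl2, Ccl7 and Ccl12 all lie lower on the retinoic acid arrays (as do 23% of named genes). Of the Ccr1 ligand genes, Ccl3 and Ccl9 lie lower, Ccl6 lies higher and Ccl5 overlaps.

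The cells' own genes for ligands of these receptors were compared as well. Of 17 measured, Ccl7 and Ccl12 fell, 15 did not pass and none rose, beside 1.79% of all named genes called lower and 1.28% higher. The median log2 difference of the 17 was 0.00097. At an unadjusted limma p under 0.05, 1 was higher and 6 lower, beside 6.06% and 7.37% of all tested probe sets. With only probe sets above the dim level tested, 1 of 13 was higher and 6 lower, beside 1935 and 2120 of 19783. The Ccl19 and Ccl21 genes were not analysed here. Ccl7 and Ccl12 encode monocyte-attracting ligands of Ccr2. Ccl7 read 8.06 and 8.05 with retinoic acid, against 9.92 and 10.40 with DMSO (limma adjusted p = 0.0143). Ccl12 read 5.39 and 5.42 with retinoic acid, under the dim level, against 7.34 and 8.14 with DMSO (limma adjusted p = 0.0306), so its difference is against background. Ccl2, the third ligand of Ccr2, is singled out after its values were seen: it read 10.07 and 9.97 with retinoic acid, against 10.76 and 11.08 with DMSO, and did not pass (log2 difference -0.90 ± 0.13, SE, limma adjusted p = 0.0553). All 3 Ccr2 ligand genes thus lay lower on both retinoic acid arrays than on any DMSO array, as did 23% of all named genes. Ccr2 itself was 1.27-fold lower and not past the threshold.

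Of the ligand genes of Ccr1 none passed, with Ccl3, Ccl5 and Ccl9 lower on average and Ccl6 higher. Ccl5, added after its values were seen, overlapped between the groups (log2 difference -0.12 ± 0.19, SE, limma adjusted p = 0.841). Ccl9 and Ccl3 did not pass and differed by -0.28 ± 0.09 and -0.70 ± 0.19 (log2, SE, limma adjusted p = 0.297 and 0.206). Ccl6, singled out after its values were seen, read 12.27 and 12.21 with retinoic acid, against 11.36 and 11.74 with DMSO, and did not pass (log2 difference 0.69 ± 0.15, SE, limma adjusted p = 0.129). Of the Cxcr2 ligand genes none passed, and Cxcl3 read 9.40 and 8.34 with retinoic acid, against 8.45 and 7.43 with DMSO, so that its groups overlapped. The genes of the Cxcr4 ligand Cxcl12 and the Xcr1 ligand Xcl1 lay under the dim level in both groups.

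Downstream of the receptors, 26 genes of G protein signalling and its control were measured. Of these, Grk3, Pik3cg and Pik3r6 fell, 23 did not pass and none rose, beside 1.79% of all named genes called lower and 1.28% higher. The median log2 difference of the 26 was -0.18. At an unadjusted limma p under 0.05 there were 3 higher and 12 lower, beside 6.06% and 7.37% of all tested probe sets. None of the 26 was dim in both groups, unlike 19292 of all tested probe sets. With only probe sets above the dim level tested, 3 of 25 were higher and 11 lower, beside 1935 and 2120 of 19783. Grk3, a kinase that phosphorylates activated receptors so that arrestins can silence them, read 8.44 and 8.45 with retinoic acid, against 9.66 and 9.61 with DMSO, 2.28-fold lower (limma adjusted p = 0.00833). Pik3cg, the catalytic subunit of the lipid kinase that G protein beta and gamma subunits activate, read 10.59 on both retinoic acid arrays, against 11.26 and 11.21 with DMSO (1.57-fold lower, limma adjusted p = 0.0325). Pik3r6, a regulatory subunit of that kinase, read 9.36 and 9.29 with retinoic acid, against 9.98 on both DMSO arrays (1.57-fold lower, limma adjusted p = 0.0334). All 3 were lower on every retinoic acid array than on any DMSO array, as were 23% of all named genes. Rac2, a GTPase of the leukocyte cytoskeleton, and Gnb1, a G protein beta subunit, did not pass, with log2 differences of 0.02 ± 0.08 and -0.18 ± 0.08 (SE). The stress gene Dusp1 fell as well (log2 difference -1.32, limma adjusted p = 0.00746), as did Junb (-0.68, limma adjusted p = 0.0398), among 9 stress genes whose summed linear intensity was 4123 to 4354 with retinoic acid and 5535 to 5552 with DMSO. The part of that shift in the signalling genes was not tested.

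Of 16 genes of the receptor, ligand, signalling and marker lists beyond the 9 that are named as having passed, 14 did not pass in any of the 4 fits without 1 array, with limma adjusted p from 0.0560 (C3ar1) to 0.293 (Fscn1 and Cd79b). Ccl7 and Ccl12 passed without DMSO replicate 1 (limma adjusted p = 0.0433 for Ccl7 and 0.0430 for Ccl12), where the spread came from the retinoic acid arrays alone, which for Ccl12 were dim. They did not pass without retinoic acid replicate 1 (0.110 for Ccl7 and 0.161 for Ccl12), retinoic acid replicate 2 (0.113 and 0.174) or DMSO replicate 2 (0.0586 and 0.0573).

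Ccr9, Xcr1, Ccr1 and Ccr2 lie in a run of receptor genes on chromosome 9, in the order Lztfl1, Ccr9, Fyco1, Cxcr6, Xcr1, Ccr1, Ccr1l1, Ccr3 and Ccr2 in the RefSeq gene table (GRCm38.p6). Of these 9 protein-coding genes, Ccr1 passed and the other 8 did not, beside 3.07% of all named genes called. Xcr1 and Ccr1l1, on either side of Ccr1, differed by -0.02 ± 0.10 and 0.01 ± 0.11 (log2, SE), both under the dim level. Cxcr6 and Ccr3 lay under the dim level too, with log2 differences of -0.22 ± 0.11 and -0.07 ± 0.11 (SE). Lztfl1 and Fyco1, which are no chemokine receptors and lay above the dim level, differed by 0.09 ± 0.14 and 0.10 ± 0.07 (log2, SE). The dim neighbours, Ccr9 included, stayed under the dim level with retinoic acid. They showed no rise above it, and a fall could not be read.

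By profile over the 4 arrays, each centred on its own mean, the genes nearest to Ccr1 were Hif1a, Gimap5 and Olr1, at Euclidean distances of 0.137, 0.141 and 0.145 (log2 units). Those nearest to Cxcr2 were Elovl7, Mmp25 and Ocstamp, at distances of 0.0591, 0.0804 and 0.0855. Hif1a is a transcription factor of the hypoxia response and Olr1 a scavenger receptor, and their log2 differences were 1.55 and 1.34, with 1.34 for Gimap5. Elovl7, a fatty acid elongase, Mmp25, a membrane-bound metalloproteinase of leukocytes, and Ocstamp had log2 differences of -1.17, -1.23 and -1.09. These 6 genes were picked for their likeness to a called gene, so their differences are a description with no test. 

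**Figure D4:**
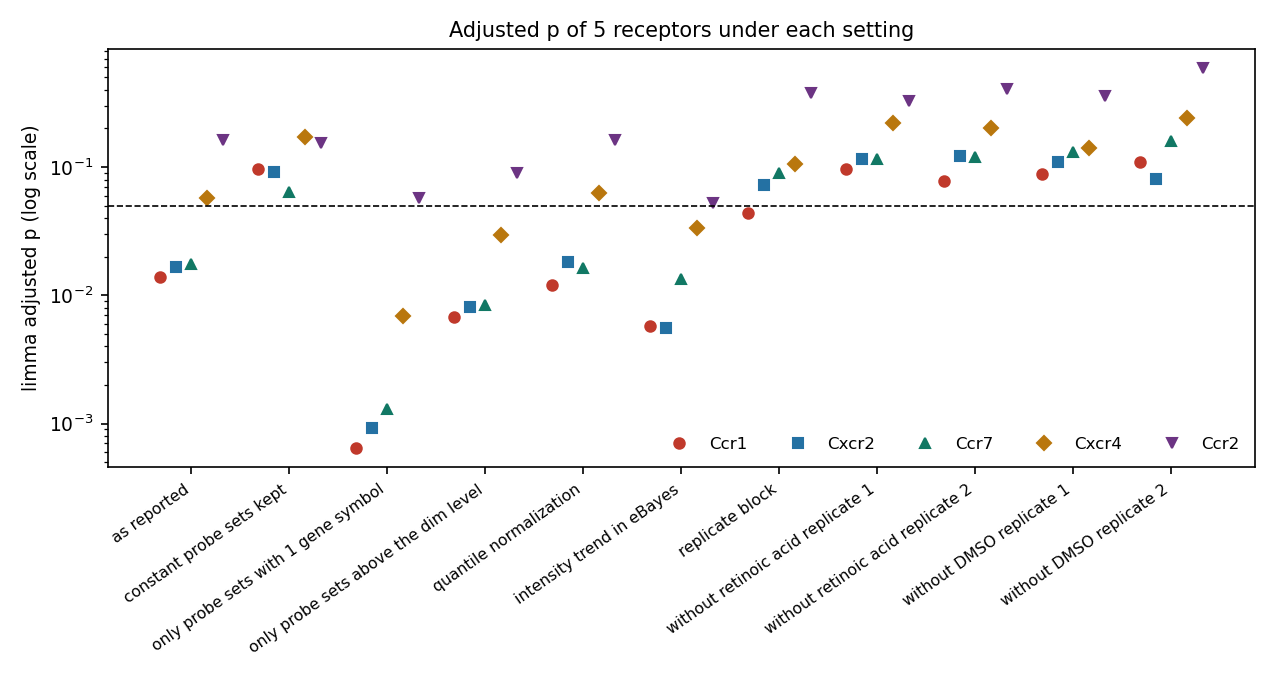
Limma adjusted p (y axis, log scale) of Ccr1, Cxcr2, Ccr7, Cxcr4 and Ccr2 as reported and under the alternative settings named on the x axis; the dashed line is the threshold of 0.05. Ccr1, Cxcr2 and Ccr7 lie under the line as reported and above it in all 4 fits without 1 array, whereas Ccr2 lies above it throughout.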

How the data were processed

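RNA of 2 retinoic acid and 2 DMSO samples (250 ng each) was labelled and hybridised to 1-colour Affymetrix arrays, per the labels' protocols. The authors deposited linear intensity values, 1 per probe set and array, made with Affymetrix Expression Console and RMA (background correction, quantile normalization and summary of probes), per the submitters' processing notes; versions and genome build are not given in the sources used here. RMA understates differences of dim genes. Precision is limited by having 4 arrays. The values were taken to log2 here and not normalized again.

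Of 41345 probe sets, 1625 held the same value on all 4 arrays (1624 at the lowest intensity, 4.78) and were left out; with them kept, limma called 0 probe sets. The others were tested with limma 3.58.1 (R 4.3.3), lmFit and eBayes, two-sided, without covariates. The code was tested on simulated data. Gene names came from the platform annotation (23521 probe sets with 1 symbol, 1814 with several, 16010 unnamed here); 23328 of the former were found in the RefSeq gene table. Where several probe sets named a gene, the brightest on average stood for it. Named were every receptor of the 9, each called gene and the 2 uncalled genes with the highest mean over the 4 arrays in each receptor, ligand and signalling list (marker lists are given by called genes and sums), the neighbours in the receptor gene run and the 3 genes nearest in profile to Ccr1 and Cxcr2, plus a few said to be chosen after their values were seen. The receptors, lists and the choice to leave out constant probe sets were made with earlier results of these data known. The marker lists were of monocytes, neutrophils, B, T and NK cells, type 1, plasmacytoid and migratory dendritic cells, erythroid cells, basophils and eosinophils, megakaryocytes and stress genes. Alternatives changed the probe sets tested, the normalization, the prior, the replicate block and the arrays.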

Additional observations from a re-analysis of the deposited data

How the results depend on the processing

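As reported, limma called 831 probe sets, 3 of the 9 receptors and 2 of the 14 other chemokine receptors. It also called 4 of the 6 other attractant receptors, 2 of the 17 ligand genes and 3 of the 26 signalling genes. Of all named genes 3.07% were called. With the constant probe sets kept, all 6 counts were 0, with 6260 probe sets and 5 receptors at an unadjusted p under 0.05 (Ccr1 adjusted p = 0.0960, Cxcr2 0.0918, Ccr7 0.0644). Testing only probe sets with 1 symbol gave 1636 probe sets, 4 ligand genes and 11 signalling genes. With only probe sets above the dim level 6 signalling genes passed, and with an intensity trend 5. Without 1 array, 25 to 55 probe sets passed, 0 receptors, 0 to 1 other chemokine receptors, 0 other attractant receptors, 0 to 2 ligand genes and 0 signalling genes. The labels do not say that replicate numbers mark shared material. With the replicate number as a block, 161 probe sets passed, 1 receptor (Ccr1, adjusted p = 0.0442), 0 other chemokine receptors, 1 other attractant receptor, 0 ligand genes and 0 signalling genes. Deviations of same-numbered arrays from their group means correlated at -0.25, and with a crossed replicate block, added after the data were seen, 457, 3, 1, 2, 1 and 1 passed in the same order. Quantile normalization kept all 6 counts within 1.5 times. The deposited values were already quantile normalized by RMA, so this repeat could change little and says little about normalization.

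Signs turned in fits without 1 array for 8 of the named genes that were followed across the settings. These fits take the spread from the untouched group and assume that the lone array varies like it. Over these fits the log2 difference ran from -0.052 to 0.010 for Ccr6, -0.123 to 0.074 for Xcr1, with 0.0025 without DMSO replicate 1, -0.0082 to 0.267 for Cxcr3, -0.028 to 0.129 for Gpr183, with -0.0070 without retinoic acid replicate 1, -0.0075 to 0.052 for Rac2 and -0.082 to 0.261 for Lztfl1. It ran from -0.114 to 0.136 for Ccr1l1, with -0.018 without retinoic acid replicate 2, and from -0.161 to 0.015 for Ccr3, with 0.0036 without retinoic acid replicate 2. The cause of these changes was not tested, apart from the fewer samples or probe sets that a setting uses.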
